A study of Rattus norvegicus with 9 samples.

Results

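The spinal cord of rats treated with alpha-lipoic acid after a contusion was set against sham-operated cord, gene by gene, to find what still differed from sham under treatment. Members were all genes with at least 10 counts in at least 3 of the 9 libraries, which gave 16760 of the 36051 genes in the count table, measured in 6 of the 9 libraries. SCI_ALA is injured cord given alpha-lipoic acid, SCI_Veh is injured cord given normal saline, and sham is cord after a sham operation, with 3 libraries each. All 3 groups carry the genotype label WT and were taken at day 3. The injury was a contusion at thoracic level T9 made with an impactor. The dose and route of alpha-lipoic acid, and the age and sex of the rats, are not given in the sources used here. The labels do not say whether the 3 libraries of a group came from separate rats, so every p-value measures only the spread between these libraries, which may be technical.

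Alpha-lipoic acid is a short fatty acid with a ring of paired sulfur atoms that cells use, bound to protein, as the swinging arm of the mitochondrial dehydrogenases for pyruvate, 2-oxoglutarate, branched-chain keto acids and glycine. Given as a drug it is known as an antioxidant and as an inducer of genes controlled by the transcription factor NRF2. In the first days after a contusion, neurons and oligodendrocytes die at the lesion, astrocytes become reactive, microglia divide, and blood monocytes enter and turn into macrophages that take up myelin debris and red cells.

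Total counts ran between 13857771 and 15736132 per library, and the genes tested held at least 99.89% of them. On the first principal component, which carried 53.02% of the variance, the SCI_ALA libraries lay at -48.52 to -30.05 and the SCI_Veh libraries at -62.77 to -44.32, while the sham libraries lay at 82.15 to 102.1. Replicates were not copies of one library, since their counts differed by 18.36 to 65.86 in chi-square per degree of freedom. In the relation between level and gene length, sham 2 stood apart from the other sham libraries and SCI_ALA 3 was the lowest of 3 spread SCI_ALA libraries; the values and the counts without both follow the other results. Transcripts of the mitochondrial genome took 6.404, 8.076 and 8.017% of counts in SCI_ALA, against 8.593, 15.68 and 12.26% in sham (exact two-sided permutation p = 0.1, the smallest that 3 against 3 allows). Hemoglobin transcripts took 0.1716 ± 0.09081% in SCI_ALA and 0.09524 ± 0.07054% in sham (SD, n = 3 each, exact two-sided permutation p = 0.4). The defining markers of neurons (Rbfox3, Snap25), oligodendrocytes (Mbp, Ugt8), astrocytes (Aqp4, Gfap) and microglia (Csf1r) were present in all 9 libraries. Of the markers of neighbouring tissue, 0 of 8 tested skeletal muscle genes and 0 of 8 tested erythroid genes were called in SCI_ALA against sham by edgeR or DESeq2, and 0 of either had an unadjusted p below 0.05. Without sham 2, 1 muscle gene was called higher. Muscle genes summed to 13.1 to 43 CPM (counts scaled to a common library size with TMM factors) in SCI_ALA and 13 to 30.5 CPM in sham. Erythroid genes summed to 836 to 2930 CPM in SCI_ALA and 373 to 1710 CPM in sham.

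Of the 16760 genes, 5532 (33%) were called in SCI_ALA against sham at an adjusted p below 0.05, with 2893 (17.3%) higher and 2639 (15.7%) lower. The median log2 change over all genes was -0.009. Called changes of at least 2-fold numbered 1783 upward and 1483 downward, changes of at least 4-fold 742 and 281, and changes of at least 10-fold 264 and 30. The larger called changes thus lay mostly upward. Genes near 0 counts in sham could pass the count filter through the injured libraries alone, and their part in this lean was not tested. A test that asks for a change above 2-fold called 738 genes higher (4.4%) and 332 lower (1.98%). The 2 groups did not overlap in 7647 of the 16760 genes tested and in 5363 of the 5532 called. Genes named below for the largest rises and falls were picked among those without overlap, so their separation was set by that choice. The genes called higher held 32.88 to 37.11% of each SCI_ALA library, against 13.66 to 14.46% of each sham library. The genes called lower held 13.59 to 16.41% of each SCI_ALA library, against 31.06 to 33.49% of each sham library. Leaving out SCI_ALA 3 lowered the count of called genes to 3916, and leaving out sham 2 gave 5660, the extremes over the 9 libraries.

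**Figure D1:**
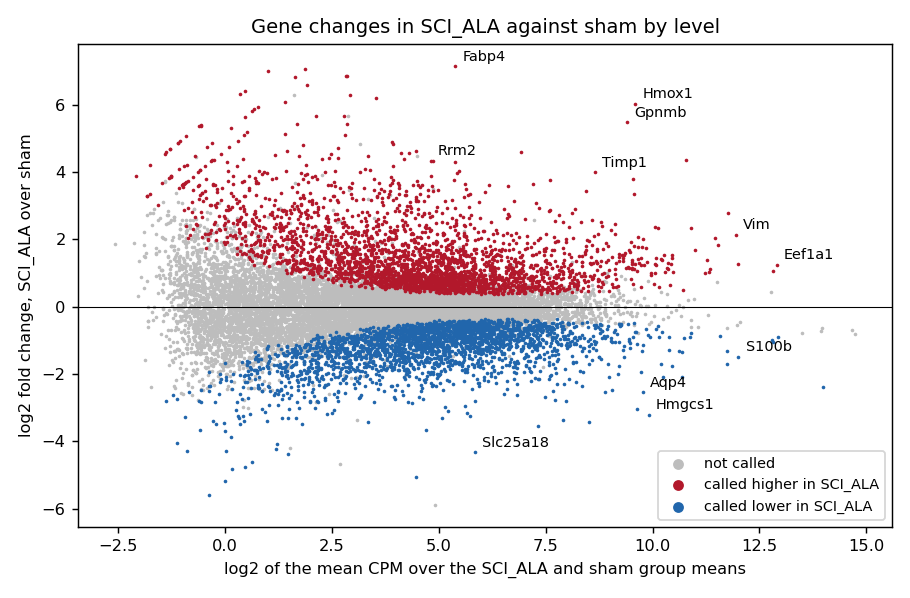
Each point is a gene; the horizontal axis is the log2 of its mean CPM over SCI_ALA and sham and the vertical axis its log2 fold change, SCI_ALA over sham; genes at 0 counts in either group are not drawn. Red points (called higher) reach further from 0 than blue points (called lower), with Hmox1 at 6.03 and Slc25a18 at -4.33.

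Among the steepest rises was Hmox1, heme oxygenase 1, which breaks down heme to iron, carbon monoxide and biliverdin. It stood at 1161, 1507 and 1888 CPM in SCI_ALA, against 19.99, 23.89 and 25.71 CPM in sham. That is 65.5-fold (log2 6.03 ± 0.25 SE, adjusted p = 2.72e-07), and no SCI_ALA library came near a sham library. Hmox1 is annotated in the count table on chromosome 19, 14508616 to 14515456, plus strand, in the rn6 build (Rnor_6.0). Gpnmb, a membrane glycoprotein of lipid-laden macrophages, stood at 1239, 1160 and 1600 CPM in SCI_ALA, against 32.77, 22.63 and 33.96 CPM in sham (44.7-fold, log2 5.48 ± 0.25, adjusted p = 3.86e-07). Fabp4, a fatty acid binding protein of fat cells and macrophages, rose 141.9-fold and Mmp12, the macrophage elastase, 114.5-fold, with sham at 0.158 to 1.13 CPM for Fabp4 and 0 to 0.328 CPM for Mmp12.

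Of the genes called, 60 had 0 counts in every sham library, 3 of the named genes of largest rise among them, and 2 had 0 counts in every SCI_ALA library. A gene with 0 counts in sham could pass the count filter only through the injured libraries, where it is high. The count of 60 is therefore a description and supports no further reading. Serpina3n, a secreted protease inhibitor of reactive astrocytes, stood at 58.97, 102.1 and 34.75 CPM in SCI_ALA, at least 933.6-fold over a floor of 3 counts for the sham group (adjusted p = 0.00178). Ucn2, a peptide of the corticotropin-releasing family, stood at 7.77, 8.61 and 6.04 CPM in SCI_ALA, at least 106.9-fold higher (adjusted p = 1.47e-05). Cd300c2, a myeloid surface receptor, was at least 473.2-fold higher, with 31.96, 23.53 and 43.75 CPM in SCI_ALA. The other genes of largest rise were Kng1, kininogen, at 115.5-fold, Siglec10, a sialic acid receptor of leukocytes, at 50.6-fold, and Reg3b, a secreted lectin, at 50.2-fold. Dio3, which the table labels a pseudogene, had 329 counts over the SCI_ALA libraries and 3 over the sham libraries. Nhp2 was also among them at 74.0-fold, but on 1 library: it had 66.87 CPM in SCI_ALA 1 against 0.486 and 1.79 CPM in SCI_ALA 2 and 3, and without SCI_ALA 1 its adjusted p was 0.0884, and without any 1 of the SCI_Veh or sham libraries it ran between 0.0607 and 0.129.

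Among the deepest falls, Slc25a18, a mitochondrial glutamate carrier of astrocytes, stood at 5.90, 4.51 and 6.04 CPM in SCI_ALA, against 94.91, 150.4 and 85.24 CPM in sham, a 20.1-fold lower level (log2 -4.33 ± 0.26, adjusted p = 1.48e-06). Agt, angiotensinogen, stood at 41.28, 46.36 and 38.19 CPM in SCI_ALA, against 454.3, 431.2 and 421.4 CPM in sham (log2 -3.38 ± 0.24, adjusted p = 3.83e-06). In both genes every SCI_ALA library lay below every sham library, as the choice of genes required. Slc7a10, an amino acid exchanger of astrocytes, was 12.6-fold lower, Scd, a fatty acid desaturase, 11.7-fold, Btbd17 10.8-fold, and Sema4d, a semaphorin of oligodendrocytes, 10.7-fold. Lix1 was 9.81-fold lower, Lcat, which esterifies cholesterol, 9.50-fold, Nipal4, a magnesium transporter family member, 8.94-fold, and C1qtnf3 8.94-fold. Agtr2, the type 2 angiotensin receptor, was 9.09-fold lower (adjusted p = 0.0414), but its adjusted p was 0.11 without SCI_ALA 1, 0.112 without SCI_ALA 2, 0.0651 without SCI_ALA 3, 0.089 without sham 2 and 0.1 without sham 3.

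By difference in mean CPM, the genes that rose most were Eef1a1, a translation elongation factor, Ftl1, the ferritin light chain, Tmsb4x, an actin-binding peptide, Vim, the intermediate filament vimentin, and Lyz2, the lysozyme of myeloid cells. Vim stood at 6308, 5780 and 7246 CPM in SCI_ALA, against 1141, 1562 and 1700 CPM in sham (4.39-fold, adjusted p = 3.41e-05). Lyz2 stood at 3489, 3780 and 6278 CPM in SCI_ALA, against 963.5, 1069 and 1268 CPM in sham (4.10-fold, adjusted p = 9.85e-05). Eef1a1, Ftl1 and Tmsb4x have near-identical copies elsewhere in the genome, so how reads were shared among copies is uncertain for them; the adjusted p of Tmsb4x was 0.056 without SCI_ALA 3. Among the largest CPM falls were 3 mitochondrially encoded genes (below) and S100b, a calcium-binding protein of astrocytes and oligodendrocytes, which stood at 1899, 2170 and 2446 CPM in SCI_ALA, against 6024, 8104 and 4039 CPM in sham (log2 -1.48 ± 0.25, adjusted p = 0.00101).

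The genes were then read in lists by role, each given by its counts and median beside the all-gene background of 17.3% higher, 15.7% lower and a median of -0.009. In bulk RNA, fewer cells of a type and less RNA per cell cannot be told apart.

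**Figure D2:**
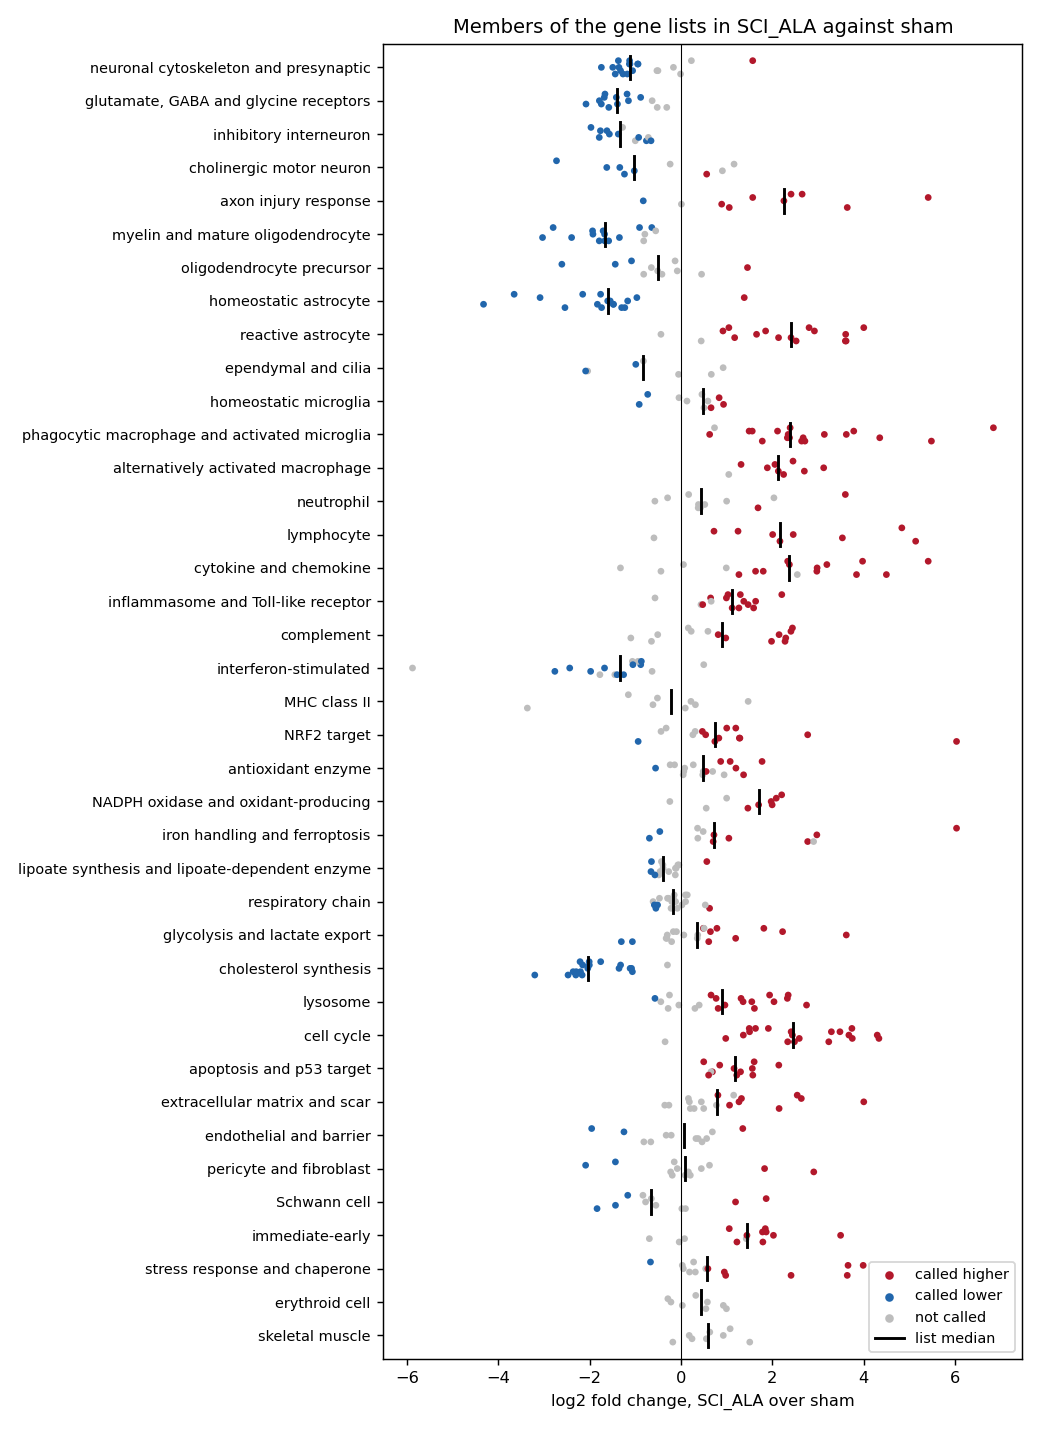
Each point is a tested member of a gene list at its log2 fold change, SCI_ALA over sham; red marks called higher, blue called lower, grey not called, and the black bar is the list median; members at 0 counts in sham are not drawn. Cell cycle, phagocyte and reactive astrocyte members lie to the right of 0, and cholesterol synthesis, homeostatic astrocyte, myelin and neuronal members to the left.

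Neuronal genes stayed below sham under treatment. Of 20 tested genes of the neuronal cytoskeleton and presynaptic terminal, 14 fell and 1 rose, with a median log2 change of -1.12. Syt1, the calcium sensor of synaptic vesicles, stood at 22.38, 24.71 and 17.79 CPM in SCI_ALA, against 76.68, 61.07 and 79.72 CPM in sham (log2 -1.75 ± 0.18, adjusted p = 3.29e-05), with a wide gap between the groups. Snap25, a core protein of vesicle fusion, stood at 504.5, 569 and 408.7 CPM in SCI_ALA, against 850.5, 1420 and 1442 CPM in sham (log2 -1.32 ± 0.27, adjusted p = 0.00284). Syp and Sv2a, membrane proteins of synaptic vesicles, fell by 1.13 and 1.37 on the log2 scale. Rbfox3, the splicing factor that carries the NeuN epitope, fell by 1.44 (adjusted p = 0.0124). Tubb3 (log2 0.23), Stmn2 (-0.01), Uchl1 (-0.51), Eno2 (-0.17) and Cplx1 (-0.53) did not pass. The member that rose was Gap43, a growth cone protein, at 463.6, 537.2 and 536.5 CPM in SCI_ALA, against 139.3, 221.6 and 157.3 CPM in sham (2.97-fold, adjusted p = 0.000464).

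Receptor and interneuron genes moved the same way. Of 14 tested genes for glutamate, GABA and glycine receptors, 11 fell and 0 rose (median -1.41). Glrb, the glycine receptor beta subunit, stood at 77.66, 74.05 and 63.05 CPM in SCI_ALA, against 155, 194 and 224.7 CPM in sham (log2 -1.42 ± 0.16, adjusted p = 7.49e-05). The AMPA receptor genes Gria2, Gria3 and Gria4 fell by 1.75, 1.15 and 1.68. Grin2b (-0.31), Grm5 (-0.63) and Gabrb2 (-0.52) did not pass. Of 12 tested genes of inhibitory interneurons, 9 fell and 0 rose (median -1.33). Calb1, calbindin, stood at 14.88, 13.46 and 10.51 CPM in SCI_ALA, against 46.8, 53.95 and 33.83 CPM in sham (log2 -1.79 ± 0.21, adjusted p = 8.88e-05). Calb2, calretinin, fell by 1.37, and Gphn, the scaffold of inhibitory synapses, by 0.93.

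Motor neuron genes gave a less stable count. Of 9 tested, 5 fell and 1 rose (median -1.02); 3 fell without SCI_ALA 2, 2 without SCI_ALA 3, 3 without sham 3 and 2 without both sham 2 and SCI_ALA 3. The 1 that rose was Prph, peripherin, whose adjusted p was 0.0571 to 0.13 without SCI_ALA 1, SCI_ALA 2, SCI_ALA 3, sham 1 or sham 3. Chodl, chondrolectin, a marker of fast motor neurons in mouse, stood at 6.50, 4.58 and 8.59 CPM in SCI_ALA, against 25.36, 62.18 and 42.95 CPM in sham (log2 -2.73 ± 0.37, adjusted p = 0.000249). Chrna4, a nicotinic receptor subunit, fell by 1.63 (adjusted p = 0.00421). Chat, which makes acetylcholine, stood at 5.43, 7.36 and 3.71 CPM in SCI_ALA, against 11.4, 9.89 and 17.65 CPM in sham; the groups did not overlap, and its adjusted p of 0.0193 became 0.0536 without SCI_ALA 1, 0.0763 without SCI_ALA 3 and 0.0783 without sham 3. Slc18a3 and Slc5a7, which load vesicles with acetylcholine and take up choline, fell by 1.02 and 1.34. Slc18a3 lost its call without SCI_ALA 2 (adjusted p = 0.0692) or SCI_ALA 3 (0.0755). Slc5a7 lost it without SCI_ALA 2 (0.0684), SCI_ALA 3 (0.0611), sham 2 (0.0505) or sham 3 (0.076).

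Genes of the axon injury response went the other way. Of 11 tested, 9 rose and 1 fell (median 2.25), and Gal (0.01) did not pass. Several members, Atf3, Jun, Gap43 and Hspb1 among them, are also counted in other lists here. Which cells carried these transcripts was not tested. Atf3, a transcription factor induced in axotomised neurons, stood at 84.23, 84.81 and 103 CPM in SCI_ALA, against 7.34, 7.20 and 7.26 CPM in sham (12.5-fold, log2 3.64 ± 0.20, adjusted p = 9.46e-07). Gadd45a, a stress-induced growth arrest gene, stood at 98.23, 113.4 and 114.8 CPM in SCI_ALA, against 24.12, 23.42 and 20.98 CPM in sham (4.76-fold, adjusted p = 8.84e-06). Replicates of both genes lay close together and far from the other group. Sox11, a transcription factor of axon growth, rose 42.6-fold over sham libraries that held only 6 counts in all. Hspb1, a small heat shock protein, rose 5.31-fold. The member that fell was Stmn4, a stathmin of neurons, but not without SCI_ALA 1 (adjusted p = 0.064), SCI_ALA 2 (0.0894), sham 1 (0.0738) or sham 2 (0.0814).

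Myelin genes were lower almost throughout. Of 16 tested genes of myelin and mature oligodendrocytes, 13 fell and 0 rose (median -1.67), and the list summed to 24500 to 34100 CPM in SCI_ALA and 49200 to 88200 CPM in sham. Ugt8, which makes galactocerebroside, stood at 216.8, 162.2 and 143.7 CPM in SCI_ALA, against 1826, 1382 and 1071 CPM in sham (8.19-fold lower, adjusted p = 3.47e-05). No SCI_ALA library reached a sham library in it. Fa2h, which hydroxylates the fatty acids of myelin lipids, was 6.97-fold lower, and Ermn, ermin, a cytoskeletal protein of myelin, 3.83-fold.

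Mbp, myelin basic protein, was one of 3 myelin genes that did not pass. It stood at 17430, 16760 and 25360 CPM in SCI_ALA, against 42760, 38730 and 23490 CPM in sham, so SCI_ALA 3 overlapped sham 3 (log2 -0.82 ± 0.29, adjusted p = 0.0508). Its adjusted p was 0.041 without SCI_ALA 3 and 0.0196 without sham 3. Cldn11 (-0.79, adjusted p = 0.0532) and Myrf (-0.56) were the other two.

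Precursor genes were divided. Of 11 tested genes of oligodendrocyte precursors, 3 fell, 1 rose and 7 did not pass (median -0.51), Pdgfra (0.45), Cspg4 (-0.08) and Olig2 (-0.51) among the last; 5 fell without SCI_ALA 1, sham 2 or sham 3. Bcan, brevican, a perineuronal proteoglycan, stood at 37.32, 29.01 and 29.67 CPM in SCI_ALA, against 196.4, 176.7 and 213.2 CPM in sham (6.11-fold lower, adjusted p = 2.06e-05). Gpr17, a receptor of differentiating precursors, fell by 1.44 (adjusted p = 0.0239), but not without SCI_ALA 2 (0.0909), SCI_ALA 3 (0.0714) or sham 1 (0.0923). The proteoglycans Vcan and Ptprz1, which moved in opposite directions, are described with the other injured group.

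The homeostatic and reactive astrocyte lists moved in opposite directions. All 17 tested genes of the homeostatic astrocyte were called, 16 lower and 1 higher, Glul, which makes glutamine (median -1.61). Aqp4, the water channel of astrocyte endfeet, stood at 284.7, 252.8 and 231.7 CPM in SCI_ALA, against 1532, 1499 and 1449 CPM in sham (5.83-fold lower, log2 -2.54 ± 0.22, adjusted p = 1.11e-05), tight within each group and far apart. Ntsr2, a neurotensin receptor of astrocytes, stood at 72.37, 67.25 and 69.37 CPM in SCI_ALA, against 270.8, 429.8 and 229.6 CPM in sham (4.45-fold lower, adjusted p = 3.77e-05). Slc25a18 and Slc7a10, named above, belong to the same list.

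Of 17 tested genes of the reactive astrocyte, 15 rose and 0 fell (median 2.41). Timp1 is also on the matrix list and Lcn2 on the neutrophil list, and which cells carried these transcripts was not tested. Timp1, an inhibitor of metalloproteinases, stood at 744.9, 874 and 646.5 CPM in SCI_ALA, against 47.71, 47.94 and 45.82 CPM in sham (16.01-fold, log2 4.0 ± 0.22, adjusted p = 9.46e-07). Cd44, the hyaluronan receptor, stood at 136.4, 148.3 and 188.7 CPM in SCI_ALA, against 39.78, 44.38 and 47.02 CPM in sham (3.61-fold, adjusted p = 1.57e-05). Aspg, an asparaginase, rose 5.74-fold. Gfap, the astrocyte intermediate filament, did not pass: it stood at 7777, 8062 and 8314 CPM in SCI_ALA, against 7228, 6185 and 4380 CPM in sham, with no overlap but a log2 change of 0.44 ± 0.23 (adjusted p = 0.155). Cxcl10 (-0.44) did not pass either. Of 7 tested ependymal and cilia genes, 2 fell and 0 rose (median -0.83). One of the 2 was Vtn, vitronectin, which pericytes also express, at 24.32, 26.37 and 24.93 CPM in SCI_ALA and 137.6, 77.69 and 106.6 CPM in sham (4.26-fold lower, adjusted p = 0.000135). The other, Tekt1 of the ciliary axoneme, had overlapping groups and lost its call without SCI_ALA 2 (adjusted p = 0.0788), SCI_ALA 3 (0.0714), sham 1 (0.0567) or sham 2 (0.0703).

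**Figure D3:**
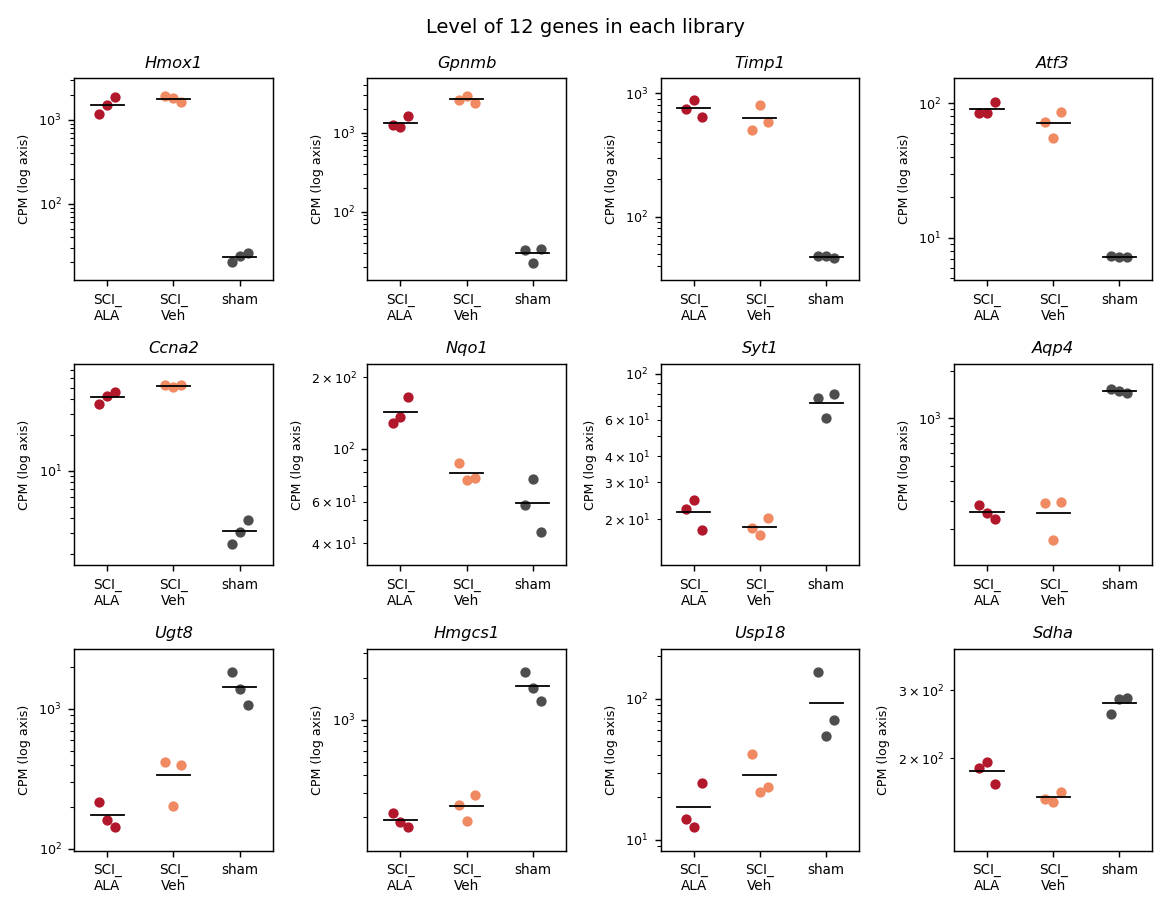
CPM of 12 genes in each library on log axes, with SCI_ALA left, SCI_Veh in the middle and sham right; points are libraries and the bar is the group mean (n = 3). Hmox1, Gpnmb, Timp1, Atf3 and Ccna2 are higher in every injured library than in any sham library, and Syt1, Aqp4, Ugt8, Hmgcs1, Usp18 and Sdha lower, while Nqo1 overlaps sham in SCI_Veh but not in SCI_ALA.

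Macrophage genes rose, and genes of resting microglia were divided. Of 19 tested genes of phagocytic macrophages and activated microglia, 18 rose and 0 fell (median 2.39); the list summed to 15800 to 21600 CPM in SCI_ALA and 3910 to 4990 CPM in sham. Lgals3, galectin 3, stood at 1241, 1398 and 1518 CPM in SCI_ALA, against 107.2, 97.78 and 97.36 CPM in sham (13.8-fold, adjusted p = 4.14e-07). Plin2, which coats lipid droplets, stood at 345.9, 387.3 and 438.6 CPM in SCI_ALA, against 62.92, 58.62 and 57.27 CPM in sham (6.55-fold, adjusted p = 1.07e-06). Neither gene came near overlap. Msr1, a scavenger receptor, rose 12.3-fold, and Apoe (log2 0.73, adjusted p = 0.0596) was the one member that did not pass.

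Of 9 tested genes of alternatively activated macrophages, 8 rose and 0 fell (median 2.13). Folr2, a folate receptor of resident macrophages, stood at 143.2, 152.7 and 226.9 CPM in SCI_ALA, against 21.04, 23.81 and 35.56 CPM in sham (6.50-fold, adjusted p = 1.64e-05). Il4r, the interleukin 4 receptor, rose 5.47-fold, Mrc1, the mannose receptor, 4.38-fold, and Tgfb1 2.49-fold. Of 10 tested genes of homeostatic microglia, 3 rose, 2 fell and 5 did not pass (median 0.48); 0 fell without SCI_ALA 2 and 1 without SCI_ALA 3, sham 1 or sham 3. Csf1r, the receptor on which microglia depend, stood at 278.4, 271.5 and 347.9 CPM in SCI_ALA, against 200.7, 128.3 and 174.6 CPM in sham (1.78-fold, adjusted p = 0.00547). Tmem119, a surface protein of resident microglia, was 1.89-fold lower (adjusted p = 0.0152), a call lost without SCI_ALA 2 (0.0682) or sham 3 (0.0583). P2ry12 (0.50) and Cx3cr1 (0.59) did not pass.

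Lysosomal genes rose in part. Of 20 tested, 13 rose and 1 fell (median 0.89); 2 fell without sham 1 or sham 2. Ctsb and Ctsd, the cathepsins B and D, rose 5.02-fold and 5.08-fold: Ctsd stood at 1663, 1650 and 2282 CPM in SCI_ALA, against 371.7, 366.8 and 362 CPM in sham (adjusted p = 9.26e-06). Ctsz rose 4.10-fold and Gusb, beta-glucuronidase, 2.93-fold. The membrane proteins Lamp1 (-0.28), Lamp2 (0.40) and Npc1 (-0.25) did not pass.

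Markers of infiltrating granulocytes and lymphocytes differed. Of 11 tested neutrophil genes, 2 rose and 9 did not pass (median 0.43), and the list summed to 315 to 798 CPM in SCI_ALA and 99.7 to 807 CPM in sham. The 2 were Lcn2, lipocalin 2, which reactive astrocytes also make, at 164, 186.1 and 197.9 CPM in SCI_ALA and 13.83, 5.46 and 25.77 CPM in sham (12.1-fold, adjusted p = 0.000262), and Csf3r, the receptor for granulocyte colony-stimulating factor, at 3.22-fold. S100a8 (0.38), S100a9 (0.52) and Mpo (0.998) did not pass.

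Of 9 tested lymphocyte genes, 8 rose and 0 fell (median 2.17), a count that was 4 without SCI_ALA 1, 4 without SCI_ALA 2, 3 without SCI_ALA 3, 4 without sham 1 and 5 without sham 2 or sham 3. Cd8a and Cd8b, chains of the CD8 co-receptor, stayed called whichever library was left out. Cd8a stood at 20.37, 28.32 and 39.97 CPM in SCI_ALA, against 2.43, 0 and 0.533 CPM in sham (28.5-fold, adjusted p = 0.00126). Cd8b stood at 3.82, 3.89 and 7.76 CPM in SCI_ALA, against 0.393, 0 and 0 CPM in sham (35.2-fold, adjusted p = 0.000298). Cd3d, a chain of the T cell receptor complex, stood at only 2.95, 1.04 and 1.31 CPM in SCI_ALA, against 0.0655, 0.396 and 0 CPM in sham, and lost its call without SCI_ALA 1 (0.0786), sham 1 (0.0699) or sham 3 (0.0571). The CD8 chains are also known on rat macrophages, and which cells carried them was not tested.

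Cytokine genes rose with wide spread between libraries. Of 17 tested cytokines and chemokines, 12 rose and 0 fell (median 2.37); limma on log2 FPKM over all genes called 7 higher, and 1 fell without SCI_ALA 2. Ccl2, the main monocyte attractant, stood at 35.45, 119 and 87.84 CPM in SCI_ALA, against 4.65, 6.33 and 4.46 CPM in sham (15.7-fold, log2 3.97 ± 0.41, adjusted p = 6.37e-05). Ccl3 rose 14.3-fold and Ccl7 7.89-fold, both attractants of monocytes. Cxcl1, a neutrophil attractant, stood at 4.49, 31.92 and 6.25 CPM in SCI_ALA, highest in SCI_ALA 2, against 0.524, 0.316 and 0.133 CPM in sham (42.6-fold, adjusted p = 0.00123). Il1b, interleukin 1 beta, was also highest in SCI_ALA 2, with 1.74, 25.19 and 5.98 CPM in SCI_ALA against 1.18, 2.53 and 1.93 CPM in sham; the groups overlapped and it did not pass (log2 2.55 ± 0.9967, adjusted p = 0.083). Il1b did pass without SCI_ALA 1 (0.0189) or SCI_Veh 3 (0.0433). Il6 stood at 0.737, 4.10 and 1.24 CPM in SCI_ALA, against 0.328, 0 and 0.400 CPM in sham (adjusted p = 0.0233, but 0.143 without SCI_ALA 2 and 0.0513 without sham 1).

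Of 15 tested genes of Toll-like receptors and the inflammasome, 12 rose and 0 fell (median 1.12). The number that rose was 8 to 13 under the other settings, apart from the test for a change above 2-fold. Cd14, the co-receptor for lipopolysaccharide, stood at 74.31, 133.1 and 92.51 CPM in SCI_ALA, against 19.33, 22.71 and 22.98 CPM in sham (4.61-fold, adjusted p = 2.40e-05). Myd88, the adaptor of these receptors, rose 3.01-fold, Tlr2 3.10-fold, and Gsdmd, the pore former of pyroptosis, 2.04-fold. Of 14 tested complement genes, 8 rose and 0 fell (median 0.90); 1 fell without SCI_ALA 2 or SCI_ALA 3. They included C1qb at 4.90-fold and C1qc at 4.43-fold, chains of the initiating C1q complex, and the receptors C3ar1 at 5.42-fold and C5ar1 at 4.85-fold. C1s (0.22), C1r (0.16), C3 (-0.65) and C4b (-0.51) did not pass.

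Interferon-stimulated genes were below sham. Of 16 tested, 9 fell and 0 rose (median -1.33), and the list summed to 484 to 997 CPM in SCI_ALA and 1160 to 3320 CPM in sham, highest in sham 1. The number that fell was 6 without SCI_ALA 1, 5 without SCI_ALA 2, 13 without SCI_ALA 3, 6 without sham 1 and 14 without both sham 2 and SCI_ALA 3; it was 5 with no count filter. Without sham 1, 1 gene rose. Usp18, a protease that removes ISG15 and restrains interferon signalling, stood at 14.07, 12.35 and 25.07 CPM in SCI_ALA, against 154, 54.51 and 70.53 CPM in sham (5.42-fold lower, adjusted p = 0.00271). The sham libraries were themselves spread, and even the lowest lay above the highest SCI_ALA library. Oas1a, an RNA-sensing synthetase, stood at 20.91, 22.62 and 42.31 CPM in SCI_ALA, against 141.1, 62.74 and 70.33 CPM in sham (3.20-fold lower, adjusted p = 0.00468). Irf9, a transcription factor of the interferon response, was 1.83-fold lower. Mx1 (-1.45), Irf7 (-1.78, adjusted p = 0.0538) and Ifit3 (-1.07) did not pass, and Ifit1 (-5.88, adjusted p = 0.138) had 176.8 CPM in sham 1 but 0.316 and 1.27 CPM in sham 2 and sham 3. Of 8 tested MHC class II genes, 0 were called by edgeR (median -0.21), with 1 at an unadjusted p below 0.05; DESeq2 called 1 lower, as did edgeR without SCI_ALA 3 or sham 3.

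Promoters of some of these genes carry the sequence of an element at which IRF9 is known to bind in a complex. This interferon-stimulated response element was searched as a pair of GAAA blocks set 2 bases apart, on both strands, in RefSeq promoters of the GRCr8 assembly, 250 bases before to 50 bases after each annotated start. It was found in 6 of the 10 interferon-stimulated genes with a promoter in the table (60%), against 3.92% of all 33469 promoters. The sequences are the 200 bases before the start of Oas1a, at chr12:41330266-41330465 on the plus strand, and of Ifi44, at chr2:243303841-243304040 on the minus strand, the called members with a match and the largest changes. Capitals mark matches on either strand, and overlapping matches run together.
Oas1a: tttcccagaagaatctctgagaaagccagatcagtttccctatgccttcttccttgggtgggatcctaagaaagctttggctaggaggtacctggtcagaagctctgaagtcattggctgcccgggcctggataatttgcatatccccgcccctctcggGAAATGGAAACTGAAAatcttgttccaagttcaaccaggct
Ifi44: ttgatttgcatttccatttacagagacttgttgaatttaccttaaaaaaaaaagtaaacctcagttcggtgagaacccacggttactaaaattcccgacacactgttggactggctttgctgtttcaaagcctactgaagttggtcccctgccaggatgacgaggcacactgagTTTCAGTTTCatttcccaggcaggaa
A match describes the sequence and was not tested as a binding site. Ifi44 stood at 28.88, 36.92 and 62.5 CPM in SCI_ALA, against 149.9, 71.68 and 85.18 CPM in sham (2.39-fold lower, adjusted p = 0.0121).

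Genes for redox defence rose in part. Of 15 tested NRF2 targets, 10 rose and 1 fell (median 0.74); 2 fell without sham 2. Apart from Hmox1, Nqo1, a quinone reductase and classic NRF2 target, stood at 128.1, 136.2 and 165 CPM in SCI_ALA, against 57.94, 74.52 and 44.82 CPM in sham (2.42-fold, log2 1.28 ± 0.19, adjusted p = 0.000422), every SCI_ALA library above every sham library. Taldo1, an enzyme of the pentose phosphate pathway, rose 2.30-fold. Gclc (0.26), Gclm (0.31, adjusted p = 0.0906) and Slc7a11 (-0.33), which together set glutathione synthesis, did not pass. Gclm had non-overlapping groups, and its adjusted p was 0.0442 without sham 2.

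Of 17 tested antioxidant enzymes, 6 rose, 1 fell and 10 did not pass (median 0.49). The 1 that fell, Sod3, the extracellular superoxide dismutase, stayed called in 2 of the 9 fits that left out a library, those without SCI_Veh 2 or SCI_Veh 3, and elsewhere its adjusted p was 0.0543 to 0.136. Gpx1, glutathione peroxidase 1, stood at 1070, 1219 and 1746 CPM in SCI_ALA, against 266.2, 535.6 and 378.4 CPM in sham (3.42-fold, adjusted p = 0.000397). Prdx5 and Prdx4, peroxiredoxins, rose 2.58-fold and 1.83-fold, and Glrx, glutaredoxin, 2.11-fold. Sod1 (0.47, adjusted p = 0.0615), Sod2 (0.69, adjusted p = 0.1) and Cat (-0.24, adjusted p = 0.198) did not pass. Sod2, the mitochondrial superoxide dismutase, was uneven, at 221.5, 569.6 and 290 CPM in SCI_ALA and 197.9, 240.4 and 231 CPM in sham. Sod1 passed without SCI_ALA 1 (0.0376) or sham 2 (0.00714), and Sod2 without SCI_ALA 1 (0.0233).

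Genes that produce oxidants rose as well. Of 9 tested genes of the NADPH oxidase and other oxidant sources, 6 rose and 0 fell (median 1.70). Cyba, the p22phox subunit, stood at 206, 253.4 and 314.5 CPM in SCI_ALA, against 64.03, 64.87 and 65.26 CPM in sham (3.99-fold, adjusted p = 1.53e-05). Rac2 rose 4.604-fold, Ncf4 4.24-fold and Ncf1 3.93-fold, all parts of the phagocyte oxidase. Of 12 tested genes of iron handling and ferroptosis, 6 rose and 2 fell (median 0.71), with 3 rising without SCI_ALA 2 or without both sham 2 and SCI_ALA 3. Slc11a1, an iron transporter of phagosomes, rose 7.85-fold and Ftl1 6.83-fold. Tfrc, the transferrin receptor, stood at 48.92, 61.56 and 69.16 CPM in SCI_ALA, against 95.36, 96.52 and 98.56 CPM in sham (log2 -0.69 ± 0.16, adjusted p = 0.00517). The other gene that fell, Slc11a2, an iron importer, stayed called in 2 of the 9 fits that left out a library, those without sham 2 or sham 3, and elsewhere its adjusted p was 0.0546 to 0.203.

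The genes of enzymes that carry or make lipoate were mostly not called, as were 11228 of all 16760 genes tested. Of 15 tested genes of lipoate synthesis and lipoate-dependent enzymes, 3 fell, 1 rose and 11 did not pass (median -0.39). Pdhb, a subunit of pyruvate dehydrogenase, stood at 96.09, 102.6 and 99.04 CPM in SCI_ALA, against 131.7, 191.3 and 143.6 CPM in sham (log2 -0.65 ± 0.16, adjusted p = 0.00803). Dlst, the succinyl transferase of 2-oxoglutarate dehydrogenase, stood at 118.1, 115.8 and 100.5 CPM in SCI_ALA, against 76.62, 69.78 and 79.72 CPM in sham (1.48-fold, adjusted p = 0.00783). The groups did not overlap in either. Bckdha and Bckdhb, subunits of the branched-chain enzyme, were the other 2 that fell; only 1 gene fell without SCI_ALA 1, SCI_ALA 2, SCI_ALA 3 or sham 2. Dld, the shared dehydrogenase that reoxidises lipoate, had 128.9, 145 and 145.9 CPM in SCI_ALA and 146, 216.8 and 188.9 CPM in sham (log2 -0.39 ± 0.16, adjusted p = 0.078, and 0.0211 without sham 1). Lias, lipoyl synthase, did not pass (-0.49, adjusted p = 0.095; 0.0217 without sham 3), nor did Pdha1 (-0.05, adjusted p = 0.819).

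Of 19 tested nuclear genes of the respiratory chain, 3 fell and 1 rose (median -0.17). Sdha, the flavoprotein of succinate dehydrogenase, stood at 188.2, 195.4 and 171.6 CPM in SCI_ALA, against 260.5, 285.4 and 287.1 CPM in sham (log2 -0.59 ± 0.13, adjusted p = 0.0053). Ndufs1 and Uqcrc2 fell by 0.55 and 0.51, and Cox5a rose by 0.62. Ndufs1 lost its call without SCI_ALA 3 (0.0535), and Uqcrc2 without SCI_ALA 1 (0.0685) or SCI_ALA 2 (0.07). Cox5a lost it without SCI_ALA 2 (0.0649), SCI_ALA 3 (0.0965), sham 1 (0.0692) or sham 3 (0.0781). The mitochondrial genome itself had 11 of 22 tested genes lower and 0 higher (median -0.76). The count was 5 without SCI_ALA 1, 7 without SCI_ALA 2, 6 without SCI_ALA 3 and 7 without sham 2; with limma on log2 FPKM over all genes it was 6, and with only the groups compared 7. ND1, a subunit of complex I, stood at 3574, 4844 and 5543 CPM in SCI_ALA, against 6578, 13220 and 9264 CPM in sham (log2 -1.06 ± 0.27, adjusted p = 0.0101), highest in sham 2. ND2 and CYTB fell by 0.99 and 0.91; ND2 lost its call without SCI_ALA 1 (0.0503), and CYTB without SCI_ALA 1 (0.11), SCI_ALA 2 (0.0575), SCI_ALA 3 (0.0694) or sham 2 (0.105).

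Glycolysis was mixed. Of 20 tested genes, 8 rose and 2 fell (median 0.36), with 4 rising without SCI_ALA 2. Ldha, lactate dehydrogenase A, stood at 466.4, 634.3 and 529 CPM in SCI_ALA, against 160.4, 161.8 and 141.7 CPM in sham (3.51-fold, adjusted p = 2.07e-05). Hk3, a hexokinase of leukocytes, rose 12.3-fold and Slc16a3, the lactate exporter MCT4, 4.67-fold. Pfkm, the muscle-type phosphofructokinase that neurons and astrocytes also use, stood at 128.6, 128 and 91.9 CPM in SCI_ALA, against 283.6, 287 and 292.2 CPM in sham (2.48-fold lower, adjusted p = 0.000173).

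Cholesterol synthesis fell almost throughout. Of 19 tested genes, 18 fell and 0 rose (median -2.04), against 15.7% of all genes lower, and the list summed to 1170 to 1350 CPM in SCI_ALA and 4610 to 7030 CPM in sham. Hmgcs1, the synthase that commits acetyl units to the pathway, stood at 213.7, 183.6 and 169.9 CPM in SCI_ALA, against 2183, 1680 and 1361 CPM in sham (9.21-fold lower, log2 -3.20 ± 0.23, adjusted p = 4.39e-06). Idi1, an isomerase of the middle of the pathway, stood at 41.68, 36.85 and 35.65 CPM in SCI_ALA, against 193, 218.5 and 152.6 CPM in sham (4.94-fold lower, adjusted p = 6.79e-06). In both genes the SCI_ALA libraries clustered far under the sham libraries. Msmo1 and Sc5d, which act on the sterol rings, were 5.15-fold and 4.03-fold lower, and Pmvk (-0.30) alone did not pass. The count was 18 or 19 under every other setting tried apart from the test for a change above 2-fold, which called 14. The core sterol element TCACCCCAC was in 0 of the 13 members with a promoter in the RefSeq table and in 0.484% of all promoters; that says only that these letters are not in these windows.

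Cell cycle genes rose almost throughout. Of 20 tested, 19 rose and 0 fell (median 2.46), against 17.3% of all genes higher, and only Ccne2 (-0.35) did not pass. The list summed to 919 to 1140 CPM in SCI_ALA and 262 to 298 CPM in sham. Ccna2, cyclin A2, stood at 36.52, 42.82 and 46.29 CPM in SCI_ALA, against 2.43, 3.09 and 3.86 CPM in sham (13.4-fold, log2 3.74 ± 0.20, adjusted p = 9.46e-07). Rrm2, the ribonucleotide reductase subunit of S phase, stood at 43.96, 63.02 and 54.53 CPM in SCI_ALA, against 3.08, 1.42 and 3.40 CPM in sham (20.2-fold, adjusted p = 1.58e-06). The lowest SCI_ALA library was more than 10-fold above the highest sham library in Rrm2. Ccnb1, cyclin B1, rose 11.2-fold and Plk1, a mitotic kinase, 13.5-fold.

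Many such genes share promoter elements that are known to bind the NF-Y factor (CCAAT) and the DREAM and MuvB complexes (TTTGAA or TTCGAA). Searched on both strands in the same windows, CCAAT was in 12 of the 17 listed genes with a promoter (70.6%) and in 37.5% of all promoters. TTTGAA was in 8 of 17 (47.1%) and in 18.3% of all promoters, and TTCGAA in 3 of 17 (17.6%) and in 1.69%. The sequences, from the called members with a match and the largest rises, are the 200 bases before the start of Cdk1, at chr20:19265093-19265292, Plk1, at chr1:186147458-186147657, and Birc5, at chr10:103571946-103572145, all on the plus strand of GRCr8, with matches in capitals.
Cdk1: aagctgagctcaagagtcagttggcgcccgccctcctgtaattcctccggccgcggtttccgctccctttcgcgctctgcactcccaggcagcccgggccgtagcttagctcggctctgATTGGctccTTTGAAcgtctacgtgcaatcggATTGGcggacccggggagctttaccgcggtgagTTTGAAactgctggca
Plk1: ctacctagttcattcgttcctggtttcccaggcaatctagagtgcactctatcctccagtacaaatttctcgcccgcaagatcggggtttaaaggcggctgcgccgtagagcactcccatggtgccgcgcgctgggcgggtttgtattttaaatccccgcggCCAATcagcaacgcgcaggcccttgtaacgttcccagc
Birc5: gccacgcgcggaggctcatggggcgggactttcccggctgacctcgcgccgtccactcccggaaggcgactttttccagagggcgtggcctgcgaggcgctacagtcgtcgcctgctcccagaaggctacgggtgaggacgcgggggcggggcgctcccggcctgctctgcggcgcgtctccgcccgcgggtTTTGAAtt
Cdk1, the mitotic cyclin-dependent kinase, whose printed promoter holds 2 matches of CCAAT and 2 of TTTGAA, stood at 63.32, 80.23 and 93.54 CPM in SCI_ALA, against 4.72, 1.66 and 5.53 CPM in sham (19.6-fold, adjusted p = 6.93e-06). Birc5, survivin, stood at 23.25, 25.47 and 35.16 CPM in SCI_ALA, against 1.44, 2.53 and 2.60 CPM in sham (12.8-fold, adjusted p = 4.12e-06). The matches were not tested as binding sites.

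Genes of apoptosis and the p53 response rose too. Of 12 tested, 11 rose and 0 fell (median 1.19), and Casp8 (0.66) did not pass. Cdkn1a, the p21 inhibitor of cell cycle kinases, stood at 76.46, 60.93 and 76.92 CPM in SCI_ALA, against 24.12, 26.58 and 21.44 CPM in sham (2.97-fold, adjusted p = 4.37e-05). Bax and Bid, which permeabilise mitochondria, rose 2.23-fold and 2.95-fold.

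Matrix genes rose in part, and vessel genes were mostly not called, as were most of all genes tested. Of 18 tested genes of the extracellular matrix and scar, 8 rose and 0 fell (median 0.79); 5 rose without sham 2 and 3 without both sham 2 and SCI_ALA 3. Postn, periostin, stood at 31.43, 40.04 and 41.55 CPM in SCI_ALA, against 3.61, 3.64 and 10.86 CPM in sham (6.21-fold, adjusted p = 0.000579). Tnc, tenascin C, rose 5.83-fold and Lox, which crosslinks collagen, 4.43-fold. The fibrillar collagens Col1a1 (0.20, adjusted p = 0.637), Col1a2 (-0.36) and Col3a1 (0.18) did not pass, and Col1a1 overlapped, at 754.4, 724.3 and 547.6 CPM in SCI_ALA and 609.8, 401.3 and 749.6 CPM in sham. Of 12 tested endothelial and barrier genes, 1 rose and 2 fell: Esam, a junction protein, at 2.55-fold higher, Kdr, the main VEGF receptor, at 3.88-fold lower, and Mfsd2a, the lipid transporter of the blood-brain barrier, at 2.38-fold lower; 2 rose without SCI_ALA 2, and 1 fell without both sham 2 and SCI_ALA 3. Of 13 tested genes of pericytes and fibroblasts, 2 rose and 2 fell, with Tagln, transgelin of smooth muscle, at 404.4, 456.1 and 691.8 CPM in SCI_ALA and 107.2, 45.33 and 54.41 CPM in sham (7.495-fold, adjusted p = 0.000113), and Des, desmin, at 3.55-fold. Beside Vtn, Notch3 fell, with overlapping groups, and it stayed called in 1 of the 9 fits that left out a library, the one without sham 2; elsewhere its adjusted p reached 0.167.

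Schwann cell genes mark peripheral nerve, such as nerve roots. Of 11 tested, 3 fell and 2 rose (median -0.65), with 5 falling without sham 3 or under DESeq2 and 1 without both sham 2 and SCI_ALA 3, and the list summed to 761 to 926 CPM in SCI_ALA and 1100 to 2190 CPM in sham. Cadm4 and Pllp, of myelinating glia, were 2.71-fold and 2.25-fold lower, and Ngfr, the p75 neurotrophin receptor, rose 2.29-fold. The summed Schwann cell genes were lower in SCI_ALA than in sham alongside the central myelin genes above, and their part in those results was not tested.

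Immediate-early and stress genes rose in part at day 3. Of 13 tested immediate-early genes, 9 rose and 0 fell (median 1.44). Under the other settings, apart from the test for a change above 2-fold, 6 to 10 rose. Fosl1, a subunit of AP-1, stood at 25.26, 22.35 and 21.63 CPM in SCI_ALA, against 2.62, 1.19 and 2.26 CPM in sham (11.3-fold, adjusted p = 9.997e-06). Egr1 rose 4.07-fold, Junb 3.46-fold and Ier2 2.72-fold. Arc (-0.04) and Nr4a1 (-0.69), which neuronal activity induces, did not pass. Of 14 tested genes of the stress response, 7 rose and 1 fell (median 0.56). Hspa1b, an inducible HSP70 with a near-identical neighbour copy, stood at 13.8, 6.39 and 8.65 CPM in SCI_ALA, against 0.590, 0.316 and 0.866 CPM in sham (15.9-fold, adjusted p = 8.88e-05). The endoplasmic reticulum chaperone gene Hspa5 (0.05) and Atf4 (0.31) did not pass.

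Transcription factors were counted by the families that the count table assigns, and the families and genes named here were chosen after their values were seen. Over all 1053 tested factors, 137 rose (13%) and 103 fell (9.78%), beside 17.3% and 15.7% of all genes; 54 fell without SCI_ALA 2, 58 without SCI_ALA 3, 67 without sham 1 and 62 without both sham 2 and SCI_ALA 3, which also left 90 higher. Of 21 tested ETS factors, 11 rose and 0 fell (median 0.65), with 7 rising without SCI_ALA 1. Spi1, or PU.1, which specifies macrophages and microglia, stood at 64.4, 77.73 and 79.4 CPM in SCI_ALA, against 26.54, 24.68 and 20.51 CPM in sham (log2 1.63). Fli1 rose by 1.61 and Ets1 by 1.19. Of 49 bZIP factors, 20 rose and 4 fell (median 0.54), with Batf at 3.27 and Maff at 3.14 beside Atf3 and Fosl1; 2 fell without SCI_ALA 1 and 1 without SCI_ALA 2, SCI_ALA 3 or sham 1. Of 83 homeobox factors, 8 rose and 17 fell (median -0.43), among them Hoxb8 and Hoxd1, which fell by 1.35 and 2.79; 9 fell without SCI_ALA 2 or SCI_ALA 3 and 10 without sham 1. Of 391 C2H2 zinc finger factors, 24 rose and 27 fell, against 14 and 11 without SCI_ALA 2, 12 and 14 without SCI_ALA 3, and 18 and 16 without SCI_ALA 1.

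The injured group given saline was set against the same sham libraries. There 6341 genes (37.8%) were called, 3252 higher (19.4%) and 3089 lower (18.4%). Both comparisons use the same 3 sham libraries, so their values are given side by side. The list medians in SCI_ALA and in SCI_Veh, each over sham, were 2.46 and 3.16 for the cell cycle, 2.39 and 3.00 for phagocytes, and -2.04 and -1.63 for cholesterol synthesis. They were -1.12 and -1.45 for neuronal genes, -1.67 and -1.35 for myelin, -1.61 and -1.95 for homeostatic astrocytes, and -1.33 and -1.28 for interferon-stimulated genes. For NRF2 targets they were 0.74 and 0.59, and for antioxidant enzymes 0.49 and 0.13. The summed phagocyte genes stood at 15800 to 21600 CPM in SCI_ALA, 28300 to 35500 CPM in SCI_Veh and 3910 to 4990 CPM in sham.

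**Figure D4:**
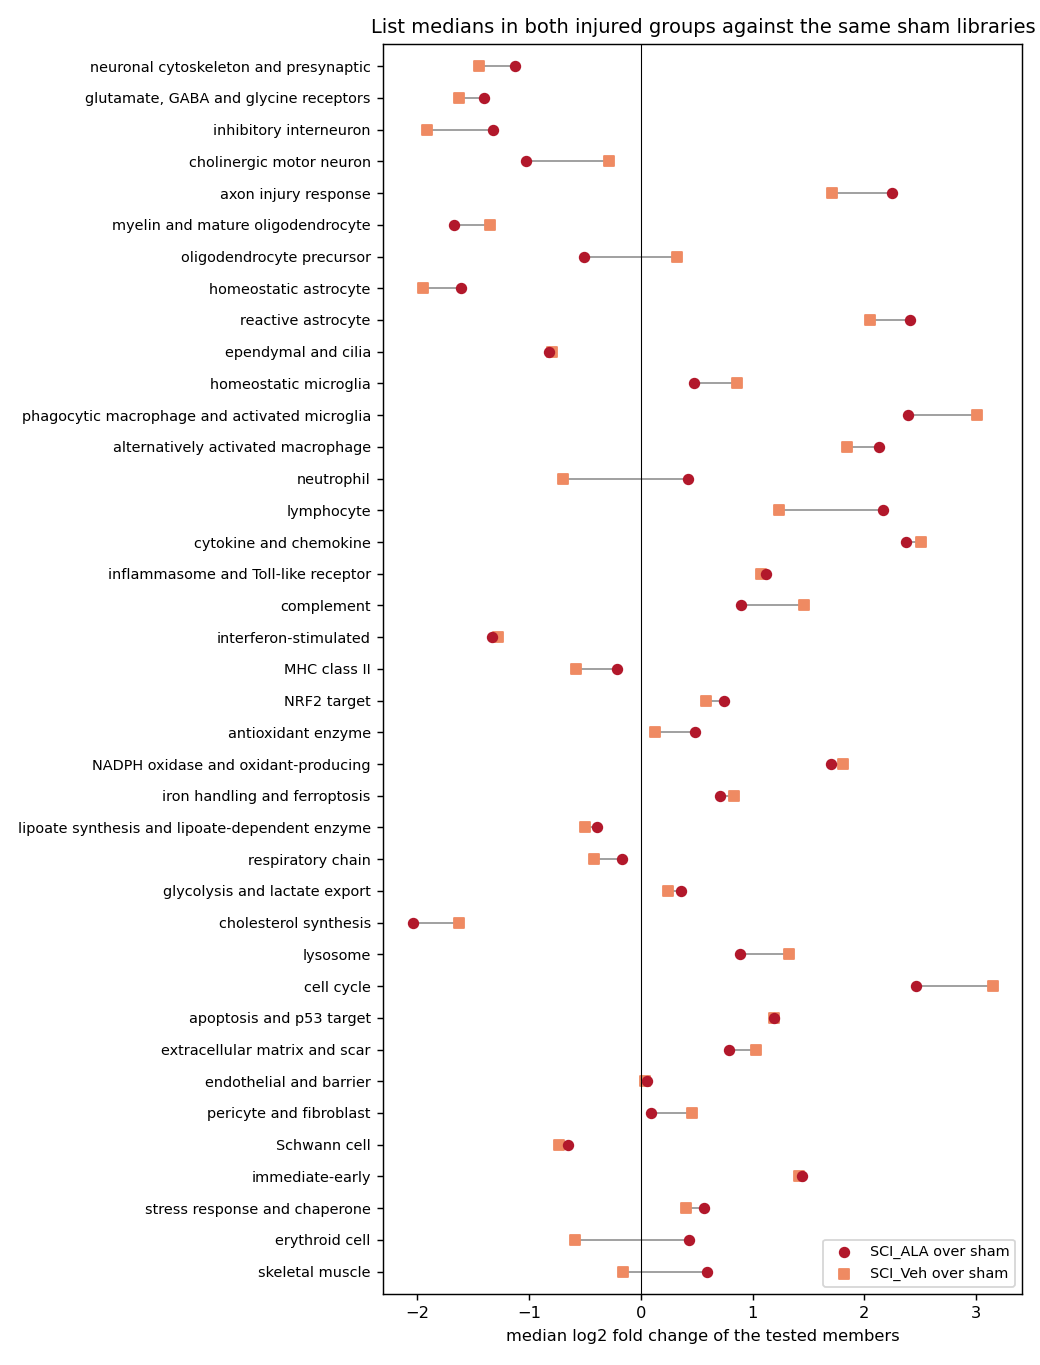
Median log2 fold change of the tested members of each gene list, with red circles for SCI_ALA over sham and orange squares for SCI_Veh over sham; both use the same sham libraries. Most medians lie on the same side of 0 in both groups, and those for oligodendrocyte precursors (-0.51 and 0.33), neutrophils (0.43 and -0.70), erythroid cells (0.43 and -0.59) and skeletal muscle (0.59 and -0.16) do not.

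A test of the difference itself, SCI_ALA against SCI_Veh, called 20 genes (0.119%), 13 higher (0.0776%) and 7 lower (0.0418%), with adjusted p = 0.0176 for Rplp2 and 0.0478 for the other 19; at an unadjusted p below 0.05 there were 2055. With so few calls near the threshold, a gene that passed against sham in 1 injured group and not in the other is not shown to differ. The count was 0 without SCI_ALA 2, 2 without SCI_ALA 1 or SCI_ALA 3, and 88 without sham 2.

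Nqo1 was one such gene: it had 128.1, 136.2 and 165 CPM in SCI_ALA, 87.18, 74.05 and 75.51 CPM in SCI_Veh and 57.94, 74.52 and 44.82 CPM in sham. It was called in SCI_ALA against sham and not in SCI_Veh against sham (log2 0.42, adjusted p = 0.101), but the difference between the injured groups did not pass (log2 0.86, adjusted p = 0.116). Lcat, 9.50-fold lower in SCI_ALA, lay just outside the threshold in that test (log2 -1.32, adjusted p = 0.0523).

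Among the 20 genes, 2 were below sham under treatment and did not pass in the saline group. Ptprz1, a receptor phosphatase that carries chondroitin sulfate, stood at 46.24, 39.21 and 38.53 CPM in SCI_ALA, at 107.7, 113.6 and 120.1 CPM in SCI_Veh and at 80.75, 64.87 and 117.3 CPM in sham. It was below sham in SCI_ALA (log2 -1.09 ± 0.20, adjusted p = 0.00162) and did not pass in SCI_Veh (0.38, adjusted p = 0.153). Mmp15, a membrane metalloproteinase, stood at 21.44, 20.13 and 14.01 CPM in SCI_ALA, at 66.26, 48.83 and 47.14 CPM in SCI_Veh and at 69.02, 45.65 and 56.41 CPM in sham (log2 -1.62 for SCI_ALA and -0.08 for SCI_Veh, each over sham). In both genes only the SCI_ALA libraries lay below all the others.

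Others kept part of their distance from sham. Vcan, versican, a scar proteoglycan, stood at 69.55, 82.93 and 96.02 CPM in SCI_ALA, at 160.1, 215.6 and 197.5 CPM in SCI_Veh and at 31.92, 23.97 and 34.7 CPM in sham (2.74-fold for SCI_ALA over sham, adjusted p = 0.000173). Tgfbr1, a receptor for TGF-beta, stood at 87.85, 84.6 and 127.9 CPM in SCI_ALA, at 241, 252.2 and 220.2 CPM in SCI_Veh and at 45.36, 36.71 and 43.62 CPM in sham (2.39-fold for SCI_ALA over sham, adjusted p = 0.000327). SCI_ALA libraries lay between the other groups in both, with no overlap. Slc37a2, a sugar phosphate transporter of macrophages, was 1.51 above sham in SCI_ALA and 2.98 in SCI_Veh on the log2 scale. Sult1d1, a sulfotransferase, was at -1.10 and -2.50, and Dcaf12l1 at -1.02 and -2.04, in SCI_ALA and in SCI_Veh over sham.

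A further set did not pass against sham under treatment. Afap1l2 was at 0.09 in SCI_ALA and 1.26 in SCI_Veh over sham, Fmo1, a flavin monooxygenase, at 0.30 and -1.27, Ass1, which makes argininosuccinate, at -0.05 and -1.24, and Klhdc8a at 0.04 and -1.56. Etnppl, a phospholyase of astrocytes, was at -0.32 in SCI_ALA and -3.07 in SCI_Veh. Sccpdh was at 0.37 and -3.47, with sham itself spread over 6.29, 30.93 and 16.85 CPM. Missing the threshold does not show that these genes equal sham.

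Hopx, a small homeodomain protein, was called against sham only under treatment: it stood at 508.9, 622.1 and 768.5 CPM in SCI_ALA, at 250.5, 212 and 227.6 CPM in SCI_Veh and at 174.3, 284.5 and 149.6 CPM in sham (3.12-fold for SCI_ALA over sham, adjusted p = 0.000387). Its difference between the injured groups passed (log2 1.46). Sult1a1, a phenol sulfotransferase, was likewise at 1.03 in SCI_ALA and -0.35 in SCI_Veh over sham. Rps27a, at 2.08 and 0.39, and Rplp2, at 0.66 and 3.17, encode ribosomal proteins with near-identical copies and are uncertain. Pvalb, parvalbumin of fast-firing interneurons, was at -0.66 in SCI_ALA and -1.87 in SCI_Veh, Cabp1 at -0.44 and -1.39, and Carmil2 at -0.52 and -1.46. The call of each against sham in SCI_ALA was lost without SCI_ALA 3 (adjusted p = 0.0724 for Pvalb, 0.131 for Cabp1 and 0.081 for Carmil2). That of Pvalb was also lost without SCI_ALA 1 (0.0601) or sham 2 (0.0632), and that of Cabp1 without SCI_ALA 1 (0.101), SCI_Veh 1 (0.0584), SCI_Veh 3 (0.0501), sham 2 (0.0807) or sham 3 (0.0586).

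**Figure D5:**
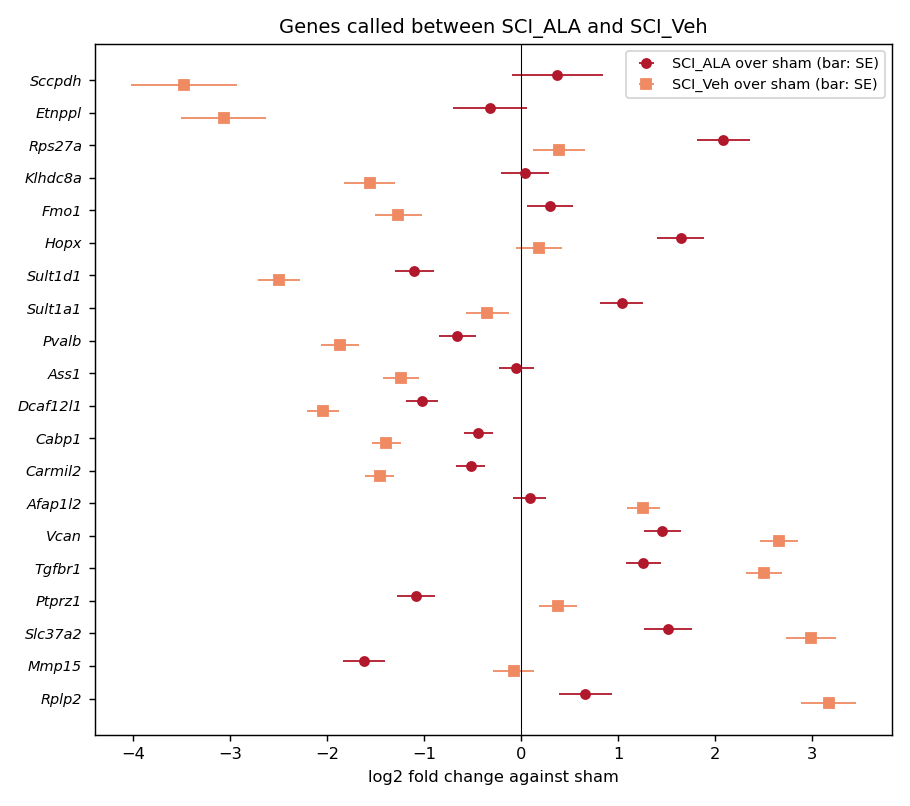
Log2 fold change against sham of the 20 genes called between the injured groups, red circles for SCI_ALA over sham and orange squares for SCI_Veh over sham, with bars of 1 standard error. Sccpdh, Etnppl and Klhdc8a lie near 0 in SCI_ALA and below 0 in SCI_Veh, and Ptprz1 and Mmp15 lie below 0 in SCI_ALA.

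Gene length moved with the result. Over the 4190 shortest genes (median 915.5 bases), 925 were higher and 338 lower in SCI_ALA against sham, and over the 4190 longest genes (median 4702 bases) 537 were higher and 930 lower. Spearman's rho between a gene's deviation from its mean level and its length was 0.0328, -0.285 and -0.460 in SCI_ALA and 0.238, -0.188 and 0.342 in sham (exact two-sided permutation p = 0.2 over 3 against 3 libraries). Sham 2 was below 0 and the other sham libraries above it, while the SCI_ALA libraries were spread, with SCI_ALA 3 the lowest. With each library's length trend removed, 657 of the shortest genes were higher and 715 lower, and 714 of the longest were higher and 852 lower; without both libraries the counts were 840 and 210, and 382 and 742. Removing the trend left 19 cell cycle genes higher. It moved by more than 1.5 times the counts for lymphocyte genes (4 higher), lipoate enzymes (5 lower), the respiratory chain (0 higher and 7 lower), Schwann cell genes (5 lower) and the mitochondrial genome (18 lower). The counts that were 2 or fewer also moved for motor neuron genes (0 higher), ependymal genes (1 higher), iron handling (1 lower) and endothelial genes (2 higher). The part of library quality in the length trend was not tested.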

How the data were processed

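The authors deposited 2 tables for 9 rat spinal cord libraries, one of raw read counts per gene and one of FPKM values. The submitters' processing notes name HISAT2 2.0.5, featureCounts 1.5.0-p3, DESeq2 1.20.0 and the rn6 build (Rnor_6.0), without giving their roles. Per the labels' protocols, libraries were made with a NEBNext Ultra RNA kit, and strand setting in counting is not given in the sources used here. The deposited FPKM values served only for an alternative with limma and for levels per length.

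Counts were fitted with edgeR 4.0.16 (quasi-likelihood, TMM factors, robust dispersion, all 9 libraries, residual degrees of freedom 6) in R 4.3.3. Genes needed at least 10 counts in at least 3 libraries, and calls required a p under 0.05 after Benjamini-Hochberg adjustment across the 16760 genes. Adjusted p-values in the text are from this fit, errors of log2 changes are standard errors, and CPM are scaled by TMM factors. Against a group at 0 counts, folds are bounds from 3 counts over the group. The fit was tested on simulated counts with changes set in SCI_ALA against sham. It recovered 2 of 67 genes changed 1.5-fold, 26 of 67 changed 2-fold and 55 of 66 changed 4-fold, with 2 false calls among 85. Far fewer genes were changed there than were called in the data, so these shares need not hold for the data. A gene that did not pass is not shown to be unchanged.

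Members and gene lists were chosen with earlier results of these data known. Named genes are the 12 largest called rises and falls and the 5 largest by CPM difference (mean of at least 50 counts, groups not overlapping, gene symbol given), up to 4 called members of smallest p per list, list members that did not pass, a fixed set of genes for the injury and the drug, and all genes called between the injured groups; other names were chosen after their values were seen. Deviations of same-numbered SCI_ALA and sham libraries correlated at 0.1767, -0.006517 and -0.08555, and those of differently numbered ones at -0.1653 to 0.163. So few pairs cannot show whether a number marks a shared batch. The numbers were not treated as pairs in the main fit. Alternatives covered scaling, filters, minimum change, leaving out each library, a gene length trend, DESeq2 1.42.0 and limma 3.58.1. Unannotated genes (3168 in the table) are counted but not named. Some genes that the naming rule picks are not reported here.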

Additional observations from a re-analysis of the deposited data

How the results depend on the processing

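The count of genes called in SCI_ALA against sham (5532) was 4863 to 6258 under the other scalings, filters, tools and length correction, apart from 1070 (738 higher and 332 lower) when a change above 2-fold was required; leaving out 1 library gave 3916 to 5660, and leaving out both sham 2 and SCI_ALA 3 gave 4204. SCI_Veh against sham (6341) gave 1487 with that requirement and 4775 to 6202 on leaving out 1 library. SCI_ALA against SCI_Veh (20) was the unstable comparison: 1 gene with library totals, 45 with no count filter, 0 with the 2-fold requirement (190 at an unadjusted p below 0.05), 1 without robust dispersion, 162 with only the groups compared, 405 with DESeq2, 3, 1 and 1 with limma on log2 FPKM, and 0 to 88 on leaving out 1 library. The cause of these differences was not tested. With gene length trend removed, 46.4% of the genes called in SCI_ALA against sham were higher, against 52.3% before, and 57.4% with library totals. With a replicate block, 5359 genes were called in SCI_ALA against sham and 6220 in SCI_Veh against sham. In SCI_ALA against SCI_Veh the block left 0 (2099 at an unadjusted p below 0.05). Whether the numbers pair the libraries was not settled. Of the 193 named genes, 0 of those called in the main fit changed sign under any alternative. Most of them were picked for being called, so that count was largely set by the choice of genes. Of 579 called genes examined, from the lists, named genes, transcription factors and mitochondrial genome, 394 stayed called in every fit that left out 1 library. Depth of 13857771 to 15736132 counts and 3 libraries a group limit calls of small changes and of genes near the count minimum.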
